A study of Mus musculus with 18 samples.

Results

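The 3 contralateral kidney libraries of a mouse ureteral obstruction series were compared with its 3 libraries of healthy kidney, which makes 6 of 18 samples. They were chosen by their labels alone. In unilateral ureteral obstruction (UUO) the ureter of 1 kidney is tied, and the opposite, contralateral kidney keeps draining while the tied kidney becomes fibrotic. Bulk RNA was sequenced from each kidney, and the other libraries come from obstructed kidneys, 3 of them wild type (WT UUO) and the rest with conditional deletions. Each value below is a level in the whole piece of tissue, so fewer cells of a type and less RNA per cell cannot be told apart.

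All 6 kidneys came from mice 12 weeks old at the endpoint and of a mixed C57BL6, 129sv and Balb/c background, from a line that joins floxed Twist with Cdh5-CreERT2, a tamoxifen-dependent Cre recombinase under the promoter of the endothelial cadherin gene. The 3 healthy libraries came from mice without Cre and with floxed Twist. Of the contralateral libraries, replicates 1 and 2 came from mice with Cre and without floxed Twist, and replicate 3 came from a mouse without Cre and with floxed Twist, as in the healthy group. The 3 WT UUO libraries have the same genotypes as the contralateral ones in the same order. Cre and floxed alleles therefore move together within these groups, and 2 of the 3 contralateral libraries differ from every healthy library in both. The contralateral replicate 3 library, the 1 that matches the healthy genotype, is the last value wherever levels of the 3 contralateral libraries are listed. It is named for some genes only. Replicate numbers follow the order of the samples in the series. No label ties a kidney to an animal, so a p-value here speaks of the spread among these libraries and of nothing wider.

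After loss or obstruction of 1 kidney, the remaining kidney takes over filtration and is known to enlarge, mainly by growth of existing tubule cells and to a smaller part by cell division. Cell division runs on cyclins and their kinases. S phase copies the DNA with the MCM helicase, and mitosis then needs cyclin B with Cdk1, spindle motors and kinetochore proteins. Adult tubule cells divide rarely, and the genes of mitosis are low in a resting kidney. Renin is made by juxtaglomerular cells and is the rate-limiting enzyme of the angiotensin cascade.

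Total counts ran from 78095820 to 88175281 in the healthy and from 86053662 to 91340782 in the contralateral libraries, and 44.6% to 50.3% of these counts fell on the mitochondrial ribosomal RNAs. Kidney markers were high in all 6 libraries. Lrp2 (megalin, proximal tubule) was at 6092 to 8131 CPM (counts scaled to a common library total after TMM scaling). Umod (uromodulin, loop of Henle) was at 1594 to 3334 CPM. Replicate 2 of each group had more Ddx3y than Xist counts, as in a male, and the other 4 libraries had the reverse, so that sex was balanced between the groups. The first principal component of the 6 libraries, with 32.7% of the variance, set those 2 male libraries apart, and the second, with 24.4%, separated the groups.

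The groups also differed in a property of the reads. The median change of a gene in the contralateral libraries rose with the GC content of its longest transcript, from a log2 difference of -0.21 below 40% GC to 0.31 at 60% GC or more. Genes called higher had a median GC content of 56.2%, genes called lower 43.2%, and all genes with a value 49.4%. The slope was present in every library and was steepest in healthy replicate 2, where the medians ran from 0.18 to -0.26, and in contralateral replicate 2, where they ran from -0.06 to 0.27. A fit with an offset that removes this trend was added after seeing the data, and its values are given beside many results below. It brought the medians to between -0.02 and 0.01. Trend and medians both rest on genes with a mean log2 CPM above 2, so medians near 0 follow from the fit. Genes of lower level receive the offset fitted on those genes. Whether the trend comes from the libraries or from the kidneys was not tested.

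**Figure D1:**
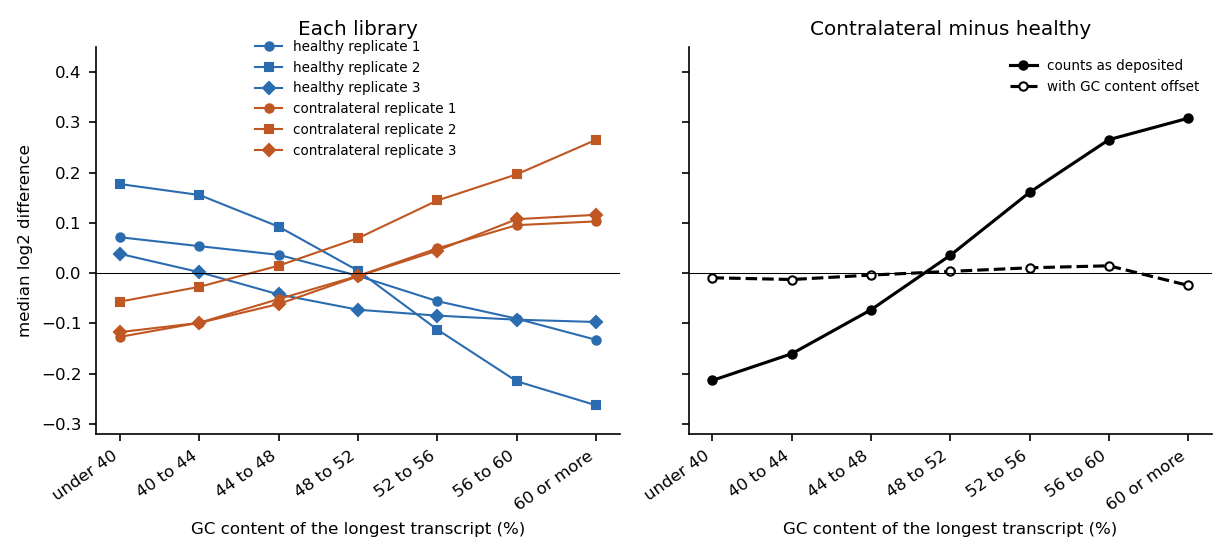
Median log2 difference of genes with a mean log2 CPM above 2, grouped by the GC content of their longest transcript (x axis, %). The left panel shows each of the 6 libraries against the mean of the 6, with healthy libraries sloping down and contralateral libraries sloping up; the right panel shows contralateral minus healthy, from -0.21 to 0.31 in the counts as deposited and from -0.02 to 0.01 with the GC content offset.

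The contralateral kidney differed from the healthy kidney in 476 of 21050 genes tested, 2.26% of them. Of these, 413 (1.96%) were higher and 63 (0.299%) lower in the contralateral libraries, at an adjusted p under 0.05 (edgeR's quasi-likelihood test, Benjamini-Hochberg adjustment over all genes). The median log2 change was 0.59 among the genes called higher and -0.67 among those called lower, and 91 and 21 genes changed by a log2 value of at least 1. Upper-quartile scaling gave 260 higher and 132 lower. Without regard to any test, the 3 values of each group did not overlap in 4304 genes (20.4%). An unadjusted p under 0.05 was reached by 3664 genes (17.4%). In the same fit WT UUO differed from healthy in 11856 genes (56.3%). With the GC content offset, 92 genes (0.437%) were called, 78 of them higher (0.371%) and 14 lower (0.0665%), and 88 of these were among the 476. Leaving out healthy replicate 2 gave 44 calls and leaving out healthy replicate 3 gave 977. Only 3 genes were called when the spread was estimated from the 6 libraries alone. A set of 40 genes, 36 higher and 4 lower, was called in each of the 6 fits that left out 1 library, and 28 of them were called with the GC content offset.

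Genes of mitosis were the group with the most calls. Of 44 tested, 24 were called higher in the contralateral kidney and none lower, against 1.96% higher among all genes, and all 44 had a positive estimate, against 48.8% of all genes. Their median log2 change was 1.48, beside -0.01 for all genes, and in 35 every contralateral value was above every healthy one, against 12.2% of all genes. The levels were low in absolute terms: summed over the list they were 56.3, 65.3 and 81.9 CPM in healthy replicates 1 to 3, and 195, 156 and 124 CPM in contralateral replicates 1 to 3. The lowest contralateral sum was thus above the highest healthy one. This list was drawn up with earlier results of these data known, and its count is not independent evidence of its direction.

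The promoters of these genes are shown because their sequences share short motifs. Mitotic genes are known to carry the cell cycle homology region, written TTTGAA, and CCAAT boxes bound by NF-Y, while genes of S phase are known for E2F sites. The stretches below run from 120 bases before to 30 bases after the RefSeq start (GRCm38.p6), all on the minus strand of the genome and printed 5′ to 3′ along the gene. Capitals mark TTTGAA and CCAAT, or their reverse complements, in the first 5 genes. In Mcm6, a helicase subunit of S phase shown for contrast, they mark CCAAT and the E2F cores.
Cdk1 (chr10:69352883-69353032): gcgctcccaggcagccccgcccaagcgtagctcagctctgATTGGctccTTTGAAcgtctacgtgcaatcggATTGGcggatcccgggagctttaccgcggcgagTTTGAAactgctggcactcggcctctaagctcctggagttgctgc
Ccnb1 (chr13:100786457-100786606): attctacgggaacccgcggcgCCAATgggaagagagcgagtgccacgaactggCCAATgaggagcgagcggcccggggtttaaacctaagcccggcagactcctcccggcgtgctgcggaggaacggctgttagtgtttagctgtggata
Ccnb2 (chr9:70421525-70421674): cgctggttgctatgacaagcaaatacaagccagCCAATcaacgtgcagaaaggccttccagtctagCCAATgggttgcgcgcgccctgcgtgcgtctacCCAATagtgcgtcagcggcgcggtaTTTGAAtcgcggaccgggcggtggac
Cenpf (chr1:189688057-189688206): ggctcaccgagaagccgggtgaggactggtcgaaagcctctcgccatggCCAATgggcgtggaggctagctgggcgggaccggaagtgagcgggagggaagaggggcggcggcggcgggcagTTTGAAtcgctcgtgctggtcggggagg
Hmmr (chr11:40733408-40733557): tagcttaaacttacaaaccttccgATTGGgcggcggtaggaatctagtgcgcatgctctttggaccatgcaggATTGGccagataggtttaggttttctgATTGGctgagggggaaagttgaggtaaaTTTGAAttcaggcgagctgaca
Mcm6 (chr1:128359676-128359825): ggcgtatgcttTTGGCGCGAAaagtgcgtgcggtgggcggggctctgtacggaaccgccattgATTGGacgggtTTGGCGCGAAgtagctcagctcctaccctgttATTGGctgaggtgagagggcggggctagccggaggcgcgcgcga
Both motifs stand in the stretches of Cdk1, Ccnb2, Cenpf and Hmmr. The stretch of Ccnb1 holds CCAAT boxes and no TTTGAA. It also holds 1 E2F core, which is not marked as such and overlaps a CCAAT box. That of Mcm6 holds E2F cores and CCAAT and no TTTGAA.

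Over the whole 300-base RefSeq promoters, on both strands, 30 of 39 promoters of 37 mitotic genes (76.9%) held TTTGAA, against 11.4% of 35 promoters of 29 S-phase genes and 17.9% of all 32851 promoters. CCAAT was in 79.5%, 57.1% and 37.4% of the same sets. The E2F core, searched as TTCCCGC and as TTGGCGC and as TTCGCGC and as TTGCCGC, was in 15.4% of the mitotic, 65.7% of the S-phase and 9.57% of all promoters, so that the S-phase set held it most often. These 4 E2F cores can overlap each other on opposite strands, as they do in Mcm6. TTTGAA and CCAAT together were found in 66.7% of the mitotic promoters and 6.95% of all. A match is a description of the letters in this window, and binding was not measured.

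Cyclin B and its kinase drive entry into mitosis. Ccnb1 (cyclin B1, chr13:100778650-100786570 in mm10) was at 0.183, 0.266 and 0.202 CPM in healthy replicates 1 to 3 and at 0.888, 1.10 and 1.16 CPM in contralateral replicates 1 to 3. The groups did not overlap, and the library that matches the healthy genotype was the highest. The log2 change was 2.27 ± 0.32 (SE, n = 3 per group, adjusted p = 0.00570). Its kinase Cdk1 (chr10:69335146-69352938) was at 0.387, 0.676 and 0.868 CPM in the healthy and at 3.28, 1.99 and 1.82 CPM in the contralateral libraries. Again every contralateral value was above every healthy one, here with contralateral replicate 1 the highest, and the log2 change was 1.86 ± 0.29 (adjusted p = 0.00714). Ccnb2 (cyclin B2) rose by 1.86 ± 0.29 (adjusted p = 0.00714), with a value of 0.0551 without healthy replicate 2. Plk1, a kinase of mitotic entry and spindle assembly, was at 0.224, 0.184 and 0.372 CPM against 1.14, 1.67 and 0.968 CPM. Its groups did not overlap, and it rose by 2.25 ± 0.31 (adjusted p = 0.00570).

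Kinetochore and spindle genes showed the same separation. Cenpf (centromere protein F, chr1:189640606-189688086) was at 1.63, 1.66 and 2.70 CPM in the healthy and at 12.3, 7.99 and 7.48 CPM in the contralateral libraries, a log2 change of 2.20 ± 0.26 (adjusted p = 0.00278). Hmmr (the hyaluronan-mediated motility receptor, which binds spindle microtubules, chr11:40701395-40733422) was at 0.387, 0.614 and 1.04 CPM against 4.59, 3.53 and 3.61 CPM, a log2 change of 2.50 ± 0.31 (adjusted p = 0.00290). Neither gene had overlapping groups, and contralateral replicate 1 was the highest library for both. Kif2c, a motor that takes microtubules apart at the centromere, rose by 2.56 ± 0.39 (adjusted p = 0.00646), and Espl1 (separase, which cuts cohesin) by 2.20 ± 0.34 (adjusted p = 0.00755). Ccnb1, Cdk1, Plk1, Cenpf, Hmmr, Kif2c and Espl1 are the 7 members called in every fit that left out 1 library. All 7 were also called with the GC content offset, where Cenpf rose by 2.32 (adjusted p = 0.00273) and Hmmr by 2.64 (adjusted p = 0.00360). Ccnb1, Plk1, Kif2c and Espl1 had a mean log2 CPM of 1.09 to 1.55, below the genes on which the offset was fitted.

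Mki67, the proliferation antigen of cycling cells, was at 5.59, 6.76 and 11.6 CPM in the healthy and at 33.2, 26.4 and 20.9 CPM in the contralateral libraries. The healthy replicate 3 and contralateral replicate 3 libraries were the closest pair, and the groups did not overlap. Mki67 rose by 1.75 ± 0.29 (adjusted p = 0.0103, and 0.0679 without healthy replicate 2). Not every member moved by as much. Nusap1, a spindle-associated protein, was at 3.89, 10.04 and 3.30 CPM against 5.96, 8.41 and 4.63 CPM, groups that overlap (log2 change 0.14 ± 0.36, adjusted p = 0.886). Kif23, a motor of cytokinesis, had a log2 change of 0.34 ± 0.32 (adjusted p = 0.632), and Foxm1, a transcription factor of mitotic genes, 1.19 ± 0.31 (adjusted p = 0.0561).

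**Figure D2:**
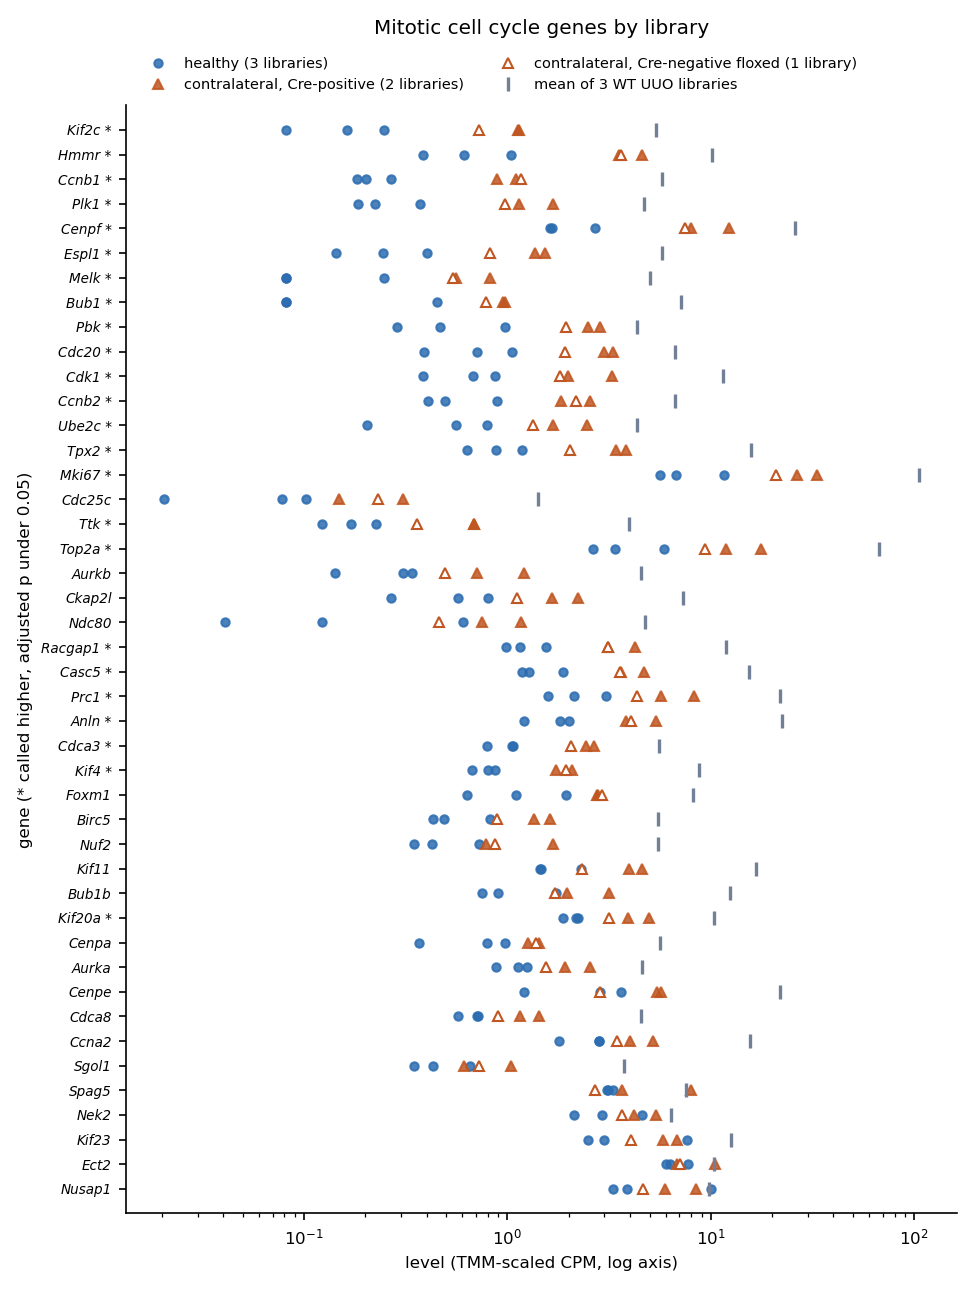
Level of each of the 44 mitotic genes in the 6 libraries (x axis, TMM-scaled CPM, log axis), ordered by log2 change, with asterisks at the 24 genes called higher. Circles are healthy libraries, filled triangles the 2 Cre-positive and open triangles the 1 Cre-negative contralateral library, and bars the mean of 3 WT UUO libraries; most triangles lie to the right of the circles, and the bars lie further right for most genes.

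Each contralateral library by itself showed the shift. Replicates 1, 2 and 3 were above all 3 healthy libraries in 41, 40 and 36 of the 44 genes, which is 93.2%, 90.9% and 81.8%, against 27.7%, 27.7% and 28.5% of all genes tested. Against the healthy libraries alone, contralateral replicate 3, the library of matching genotype, had a positive difference in 41 of 44 genes with a median of 1.13. With Cre presence in the model the median was 1.17 and 6 genes were called. With the GC content offset 20 genes were called, against 0.371% of all genes higher in that fit, and the median was 1.51. The list's own median GC content was 46.5%, below that of all genes.

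The calls depended on how the spread was estimated and on single libraries. edgeR called no mitotic gene when the fit held only the 6 libraries, where 35 of 43 had an unadjusted p under 0.05 and the median was 1.44, and it called 2 with WT UUO added. It also called none with contralateral replicate 3 as the only contralateral library, where 26 of 44 had an unadjusted p under 0.05. In the full fit DESeq2 called 34 and limma voom 11. Leaving out healthy replicate 2 gave 7 calls, leaving out healthy replicate 3 gave 32, leaving out healthy replicate 1 gave 16, and leaving out contralateral replicates 1, 2 and 3 gave 14, 17 and 24. With the male replicate 2 left out of both groups and the obstructed kidneys kept in the fit, 1 gene was called. All 44 estimates were positive there, with a median of 1.34.

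WT UUO kidneys were higher still. Of the 44 genes, 43 were called higher in WT UUO than in healthy kidney, against 29.2% of all genes, with a median log2 difference of 3.42, and the median of WT UUO minus contralateral was 2.01. Mki67 was at 106 ± 15.3 CPM and Cenpf at 26.0 ± 0.959 CPM (SD, n = 3) in WT UUO. These comparisons share the healthy or the contralateral libraries with the one above, and WT UUO libraries had 19.2% to 20.3% of counts on mitochondrial ribosomal RNAs.

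Fewer genes of DNA replication were called. Of 40 tested, 5 were called higher, against 1.96% of all genes, and none lower. In all 31 were positive, against 48.8% of all genes, and the median log2 change was 0.40, or 0.22 without contralateral replicate 1. Mcm2, a helicase subunit, was at 6.77, 7.25 and 7.33 CPM against 12.6, 10.3 and 11.0 CPM, without overlap, and rose by 0.67 ± 0.13 (adjusted p = 0.0199). Exo1 (an exonuclease) rose by 2.11 ± 0.45, Uhrf1 (maintenance of DNA methylation) by 1.61 ± 0.37, Mcm5 by 0.96 ± 0.23 and Chaf1b (chromatin assembly) by 1.10 ± 0.27, with adjusted p from 0.0258 to 0.0470. None of the 5 was called with the GC content offset, none without healthy replicate 2 (adjusted p from 0.0815 to 0.180) and none without contralateral replicate 1 (adjusted p from 0.0708 to 0.157). All but Exo1 lost the call without healthy replicate 1 (0.0590 to 0.102), all but Mcm2 without contralateral replicate 2 (0.0527 to 0.0755), Chaf1b without healthy replicate 3 (0.0858), and Mcm5 and Chaf1b without contralateral replicate 3 (0.0703 and 0.109). DESeq2 called 12 of the 40. Pcna, the replication clamp, was at 26.5, 26.8 and 23.9 CPM against 25.1, 23.6 and 17.98 CPM, with overlap (-0.21 ± 0.15, adjusted p = 0.502). Mcm6 was at 1.57, 1.72 and 9.07 CPM in the healthy libraries, where replicate 3 stood apart, and at 12.8, 13.2 and 11.5 CPM in the contralateral ones (1.58 ± 0.47, adjusted p = 0.0916, and 0.00871 by DESeq2).

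Control genes of G1 did not pass the test. edgeR called none of 26 cyclins, kinase inhibitors, pocket proteins and E2F factors, 4 had an unadjusted p under 0.05 and higher values (10.6% of all genes), DESeq2 called 2 and the median log2 change was 0.14. Ccnd1 (cyclin D1) was at 185, 146 and 124 CPM in the healthy and 245, 241 and 238 CPM in the contralateral libraries, without overlap (0.67 ± 0.18, adjusted p = 0.0652, and 0.0115 by DESeq2), while it was lower in WT UUO, at 71.6 ± 11.7 CPM. Cdkn1a (p21, an inhibitor of cyclin-dependent kinases) was at 2.03, 1.21 and 4.09 CPM against 3.04, 4.01 and 2.13 CPM, with overlap (adjusted p = 0.762). Of 59 clustered histone genes, 2 were called higher, a share near the 1.96% of all genes. They were Hist1h2bl at 2.20 ± 0.45 (adjusted p = 0.0230) and Hist1h3c at 1.78 ± 0.40 (adjusted p = 0.0324). The median of the 59 was 0.45, or 0.25 without contralateral replicate 1. Of the 59, 48 were positive, or 40 without that library, against 48.8% of all genes. DESeq2 called 9 higher, and 14 had an unadjusted p under 0.05 and higher values (10.6% of all genes). Both edgeR calls were lost with the GC content offset (adjusted p = 0.121 and 0.130). They were also lost without healthy replicate 1, healthy replicate 2 or contralateral replicate 1 (adjusted p from 0.0740 to 0.147), and that of Hist1h3c without contralateral replicate 2 (0.0625). Of 18 p53 targets edgeR called none, with 1 at an unadjusted p under 0.05, and DESeq2 called 1.

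Outside the lists above, more genes known from cycling cells were among the largest rises. These rises were taken from genes with a mean level of at least 1 CPM over all 18 libraries, a level that a gene could reach through the obstructed kidneys. Dtl, which targets replication licensing proteins for destruction, was at 0.183, 0.184 and 0.171 CPM against 1.64, 0.873 and 0.771 CPM, and at 4.69 ± 1.03 CPM in WT UUO. The groups were far apart, and Dtl rose by 2.60 ± 0.38 (adjusted p = 0.00637) and was called in every fit that left out 1 library. Neil3 (a DNA glycosylase of replicating cells) rose by 2.67 ± 0.44, Iqgap3 (a scaffold protein of cycling cells) by 2.33 ± 0.37 and Ckap2 (a spindle protein) by 2.30 ± 0.37, with adjusted p of 0.0101, 0.00798 and 0.00847. These 3 calls were lost without healthy replicate 2 (adjusted p of 0.0678, 0.0616 and 0.0619). All 4 genes were called with the GC content offset.

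Stat3 and Srebf1 also rose, with calls in every fit that left out 1 library. Stat3, the transcription factor downstream of interleukin-6 type receptors (chr11:100885098-100939540), was at 55.7, 44.8 and 62.6 CPM in the healthy and 100.1, 105 and 91.6 CPM in the contralateral libraries. The groups did not overlap, and Stat3 rose by 0.86 ± 0.11 (adjusted p = 0.00290, and 0.00845 with the GC content offset). It was higher again in WT UUO, at 179 ± 8.54 CPM. Socs3, a feedback inhibitor that Stat3 induces, was at 1.36, 1.95 and 1.58 CPM against 4.46, 4.11 and 2.20 CPM, the last in the library of matching genotype. It rose by 1.14 ± 0.24 (adjusted p = 0.0247). The Socs3 call was lost with the offset (adjusted p = 0.188) and without healthy replicates 1 or 2 or contralateral replicates 1 or 2 (adjusted p from 0.0718 to 0.0898). Srebf1, the master regulator of fatty acid synthesis, was at 22.6, 17.7 and 25.2 CPM against 37.3, 45.7 and 46.1 CPM. It rose by 0.98 ± 0.13 without overlap (adjusted p = 0.00473, and 0.0193 with the offset), and the library of matching genotype was its highest. Its relative Srebf2, which controls cholesterol synthesis, rose by 0.71 ± 0.12 (adjusted p = 0.0104, 0.104 with the offset and 0.0679 without healthy replicate 2). It was the 1 gene called among 19 of cholesterol synthesis and uptake, against 1.96% of all genes called higher. The median of the 19 was 0.25, with 0.13 without healthy replicate 3 and 0.44 without healthy replicate 2.

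Plxnb2 (plexin B2, a semaphorin receptor), Clstn1 (calsyntenin, a vesicle cargo adaptor) and Gtf3c1 (a subunit of the RNA polymerase III factor TFIIIC) were called in every such fit too. Plxnb2 was at 207, 197 and 206 CPM against 307, 353 and 305 CPM and rose by 0.66 ± 0.09 (adjusted p = 0.00570, 0.0513 with the offset). Clstn1 rose by 0.70 ± 0.09 (adjusted p = 0.00487, 0.0221 with the offset) and Gtf3c1 by 0.61 ± 0.09 (adjusted p = 0.00570, 0.0385 with the offset). None of the 3 had overlapping groups.

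Among the genes called higher with the highest counts, 7 code for large proteins, most of them structural, and none of the 7 was called with the GC content offset. Col4a1 and Col4a2, the paired chains of basement membrane collagen, were at 205, 202 and 254 CPM and 136, 147 and 152 CPM in the healthy libraries, and at 338, 439 and 293 CPM and 213, 274 and 196 CPM in the contralateral ones. Each was without overlap, with contralateral replicate 2 the highest. They rose by 0.69 ± 0.17 (adjusted p = 0.0456, 0.290 with the offset) and 0.65 ± 0.13 (adjusted p = 0.0217, 0.316 with the offset), and their longest transcripts have 57.6% and 60.5% GC. Col18a1, the precursor of endostatin, rose by 0.91 ± 0.18 (adjusted p = 0.0199), Myh9 (non-muscle myosin) by 0.61 ± 0.13 (adjusted p = 0.0246), Dync1h1 (dynein heavy chain) by 0.45 ± 0.10 (adjusted p = 0.0270), Ubr4 (a ubiquitin ligase) by 0.45 ± 0.10 (adjusted p = 0.0300) and Tln1 (talin) by 0.45 ± 0.11 (adjusted p = 0.0480). With the offset the adjusted p of the last 5 ran from 0.130 to 0.513, and without healthy replicate 2 none of these 7 was called (adjusted p from 0.0718 to 0.185). All 7 also lost the call without contralateral replicate 2 (0.0697 to 0.151). Without healthy replicate 1 all but Col18a1 and Myh9 lost it (0.0603 to 0.128), without contralateral replicate 1 all but Col4a2 (0.0503 to 0.0867), without contralateral replicate 3 Myh9 and Tln1 (0.0600 and 0.0759), and without healthy replicate 3 Tln1 (0.0718).

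Of 33 extracellular matrix genes, the 2 collagen IV chains were the called members, against 1.96% of all genes called higher. The median was 0.27, with 0.15 without healthy replicate 2 and 0.51 without healthy replicate 3. The calls fell to 0 without healthy replicate 1, healthy replicate 2 or contralateral replicate 2 and to 1 without contralateral replicate 1. In WT UUO 32 of the 33 were higher than in healthy kidney, against 29.2% of all genes. Col1a1, the main fibrillar collagen, was at 12.7, 13.8 and 22.8 CPM in the healthy and 20.6, 28.9 and 40.1 CPM in the contralateral libraries, with overlap (0.86 ± 0.51, adjusted p = 0.412), against 1138 ± 396 CPM in WT UUO. Acta2 (smooth muscle actin) had a log2 change of 0.46 ± 0.49 (adjusted p = 0.692).

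Growth and translation genes gave a mixed picture. Among 21 genes of the mTOR complex and its regulators, 5 were called higher and 1 lower, against 1.96% and 0.299% of all genes, with a median of 0.10. The genes called higher were Slc7a5 (a leucine transporter, 1.35 ± 0.27, adjusted p = 0.0214), Akt1 (0.37 ± 0.07, adjusted p = 0.0139), Akt2 (0.32 ± 0.08, adjusted p = 0.0486), Rptor (raptor, 0.27 ± 0.06, adjusted p = 0.0384) and Eif4ebp2 (a translation inhibitor that mTOR switches off, 0.54 ± 0.14, adjusted p = 0.0498). Rps6kb1, the kinase of ribosomal protein S6, fell by 0.29 ± 0.07 on the log2 scale (adjusted p = 0.0350). None of the 6 was called with the GC content offset or without healthy replicate 2 (adjusted p from 0.0718 to 0.194 without that library). The 5 higher calls fell to 2 without healthy replicate 1 or contralateral replicate 1 and to 1 without contralateral replicate 2 or 3, and Rps6kb1 was called in none of the 6 fits that left out 1 library (0.0549 to 0.104). Of 83 ribosomal protein genes edgeR called none, 74 were negative and the median was -0.18. Of these 14 had an unadjusted p under 0.05, all lower (6.78% of all genes), DESeq2 called 3 lower and upper-quartile scaling 1. Among 20 ribosome biogenesis genes Rrp12, Polr1a and Bop1 were called higher and Npm1 lower, against 1.96% and 0.299% of all genes. Each call was lost with the offset and without healthy replicate 2 (adjusted p from 0.0679 to 0.134 without that library) or contralateral replicate 2 (0.0704 to 0.110). Npm1 also lost its call without healthy replicate 1 or contralateral replicates 1 or 3 (0.0568 to 0.0936), Bop1 without healthy replicate 1 or contralateral replicate 3 (0.0637 and 0.0632), and Rrp12 and Polr1a without contralateral replicate 1 (0.0503 and 0.0642). Myc was at 5.15, 4.08 and 4.17 CPM against 4.41, 3.45 and 4.43 CPM, with overlap (-0.12 ± 0.24, adjusted p = 0.849), and at 22.6 ± 1.08 CPM in WT UUO.

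edgeR called no gene of the metabolic lists. These were 23 fatty acid oxidation genes, 20 of the citric acid cycle, 23 nuclear subunits of oxidative phosphorylation (median -0.17), 13 mitochondrially encoded proteins, 19 genes of glycolysis (median 0.29), 9 of gluconeogenesis and fructose use (median -0.31) and 20 cytochrome P450 and conjugation enzymes (median -0.23). At an unadjusted p under 0.05 were 2 citric acid cycle genes and 4 of glycolysis, all higher, and 1 of the cytochrome P450 list, lower, and none of the others. DESeq2 called 3 of glycolysis. These medians moved with single libraries: that of the cytochrome P450 list was 0.22, with 11 of 20 positive, without healthy replicate 2 and -0.53 without healthy replicate 3, and that of oxidative phosphorylation was -0.02 and -0.32. G6pc (glucose-6-phosphatase) was at 879, 899 and 593 CPM against 443, 497 and 370 CPM, without overlap but with a wide spread in the fit (-0.86 ± 0.72, adjusted p = 0.593). Of 22 HIF subunits and hypoxia-induced genes neither edgeR nor DESeq2 called any, and 1 had an unadjusted p under 0.05. Hif1a differed by 0.03 ± 0.19 (adjusted p = 0.963) and Vegfa by 0.12 ± 0.16 (adjusted p = 0.768).

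**Figure D3:**
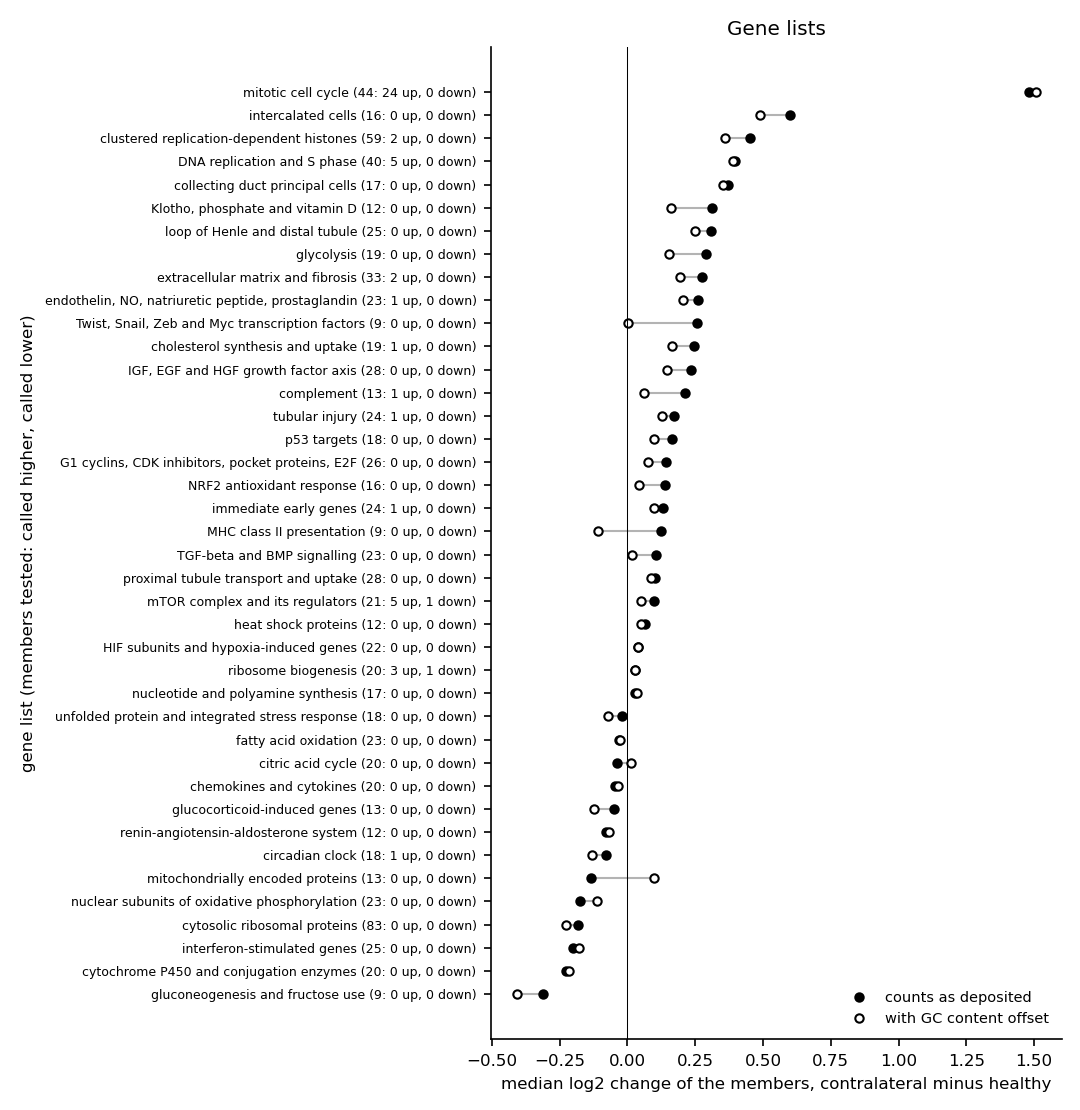
Median log2 change, contralateral minus healthy, of each pathway or segment list (x axis), as deposited (filled) and with the GC content offset (open), with the tested and called members in each label. The mitotic list lies at 1.48 and 1.51, and as deposited the other lists lie between -0.31 (gluconeogenesis and fructose use) and 0.60 (intercalated cells).

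Genes called lower were fewer, and several are known from blood vessels. Eltd1, an adhesion receptor of endothelial cells, was at 78.1, 62.4 and 72.2 CPM in the healthy and 38.3, 42.2 and 39.3 CPM in the contralateral libraries. The groups were far apart with little spread among the contralateral libraries, and Eltd1 fell by 0.83 ± 0.11 (log2, adjusted p = 0.00570). Tfpi, the tissue factor pathway inhibitor made mainly by endothelium, was at 16.1, 12.5 and 18.5 CPM against 8.73, 6.28 and 8.15 CPM and fell by 1.02 ± 0.18 (adjusted p = 0.0113, 0.0667 with the offset). Both were called in every fit that left out 1 library. In WT UUO they were near the healthy level, at 72.1 ± 5.82 and 17.002 ± 2.06 CPM.

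Among 28 endothelial markers 2 were called lower and none higher, against 0.299% lower of all genes, 21 were negative and the median was -0.16, or -0.09 without healthy replicate 3. In 9 every contralateral value was below every healthy one, against 8.29% of all genes. Emcn (endomucin) was at 75.01, 64.6 and 61.6 CPM against 39.7, 44.8 and 42.3 CPM, and Tek (the angiopoietin receptor) at 77.6, 67.9 and 65.2 CPM against 42.7, 46.6 and 47.9 CPM. Neither had overlapping groups. Both calls were lost with the GC content offset (adjusted p = 0.130 and 0.149) and without any of 5 of the 6 libraries. For Emcn the adjusted p without those libraries ran from 0.0545 to 0.0811, and for Tek from 0.0923 to 0.153, with healthy replicate 3 the library whose removal kept both calls. Plvap, the diaphragm protein of fenestrated capillaries, was at 73.3, 68.0 and 73.8 CPM against 57.5, 66.0 and 55.0 CPM, a difference of -0.27 ± 0.10 (adjusted p = 0.187). It was the 1 list member called lower with the offset (-0.59, adjusted p = 0.0114), and its longest transcript has 60.6% GC.

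Other defining endothelial genes did not pass the test. Cdh5, whose promoter drives the Cre, was at 28.1, 29.9 and 33.9 CPM against 26.5, 30.4 and 27.0 CPM, with overlap (-0.13 ± 0.13, adjusted p = 0.667). Pecam1 was at 54.4, 54.2 and 60.2 CPM against 45.3, 45.9 and 43.2 CPM, without overlap (-0.33 ± 0.13, adjusted p = 0.191), and Kdr (the main VEGF receptor) had a difference of -0.35 ± 0.14 (adjusted p = 0.216). Summed over the list the level was 1112, 1139 and 1160 CPM in the healthy and 864, 968 and 882 CPM in the contralateral libraries, which do not overlap. With the offset 23 of 28 members were negative and the median was -0.32. In contralateral replicate 3 against the healthy libraries the median was -0.16.

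**Figure D4:**
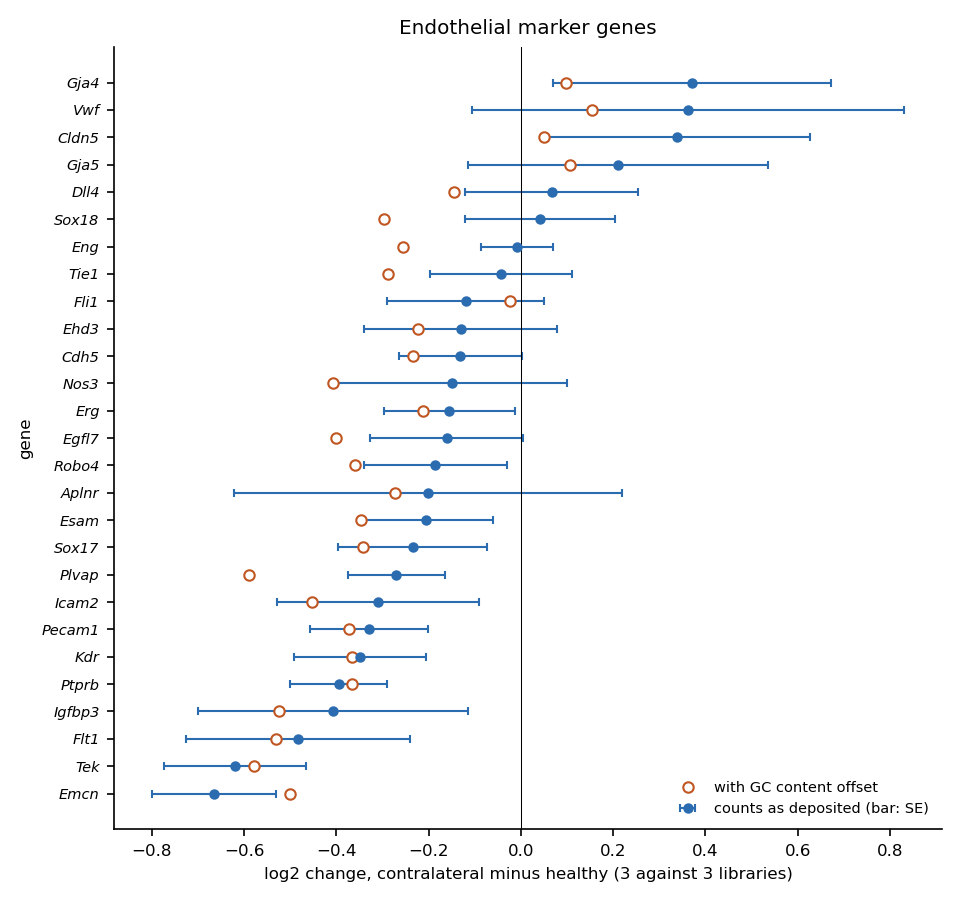
Log2 change, contralateral minus healthy, of 27 of the 28 endothelial markers with standard errors, as deposited and with the GC content offset; Meox2 is left out because its standard error is 1.92. Most estimates lie below 0, and those of Cdh5, Eng and Tie1 lie close to it.

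Other genes called lower are not known from vessels. Prune2, a protein with a BCH domain, was at 8.18, 3.69 and 4.43 CPM against 0.905, 0.892 and 1.33 CPM and fell by 2.38 ± 0.36 (adjusted p = 0.00646, 0.0159 with the offset, called in every fit that left out 1 library). It was at 17.3 ± 5.15 CPM in WT UUO. Nmrk1, a nicotinamide riboside kinase of NAD synthesis, was at 139, 99.9 and 69.9 CPM against 45.7, 58.0 and 48.1 CPM. The healthy values spread widely and the groups did not overlap, and Nmrk1 fell by 1.03 ± 0.23 (adjusted p = 0.0350, 0.130 with the offset). That call was lost without any of healthy replicates 1 and 2 and the 3 contralateral replicates (adjusted p from 0.0744 to 0.120). Its neighbour Ostf1, which starts next to it on the opposite strand of chromosome 19, fell by 0.67 ± 0.13 (adjusted p = 0.0216, 0.0296 with the offset) and lost its call without the same libraries (adjusted p from 0.0561 to 0.0933). U2surp, Fgd4 and Stag2, which are rich in A and T, fell by 0.29 to 0.34 and had adjusted p of 0.398 to 0.698 with the offset, and they lost their calls without healthy replicate 2 (adjusted p from 0.101 to 0.155).

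Renin had a large difference that did not pass edgeR's test. Ren1 was at 74.8, 28.6 and 49.4 CPM in the healthy libraries and at 6.10, 4.70 and 5.53 CPM in the contralateral ones, without overlap and with the library of matching genotype between the other 2. The log2 difference was -3.23 ± 0.86 (adjusted p = 0.0632, 0.121 with the offset). DESeq2 gave 0.00158, limma voom 0.194, and edgeR with sex in the model 0.0328. The spread behind that error is shared with all groups, and Ren1 was at 115 ± 149 CPM in WT UUO. Mice of 129 background are known to carry a near-identical copy of the renin gene, whose reads cannot be told apart from those of Ren1 here. Of 12 genes of the renin-angiotensin-aldosterone system edgeR called none, 2 had an unadjusted p under 0.05 and DESeq2 called 2, both lower, and the median was -0.08, or 0.03 without healthy replicate 2.

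edgeR called no gene of the tubule segments. The 28 proximal tubule, 25 loop of Henle and distal tubule, 17 collecting duct and 16 intercalated cell genes had medians of 0.10, 0.31, 0.37 and 0.60. At an unadjusted p under 0.05 were 0, 2, 6 and 7 of them, all higher, against 10.6% of all genes, and DESeq2 called 0, 1, 2 and 3. The loop and distal count is below that share. Of the intercalated cell genes 15 of 16 were positive, against 48.8% of all genes. The proximal tubule median was -0.03 without contralateral replicate 2, and that of the loop and distal tubule 0.12 without contralateral replicate 3. Slc26a4 (pendrin, the chloride and bicarbonate exchanger) was at 67.9, 52.5 and 58.9 CPM against 129, 105 and 129 CPM, without overlap (1.02 ± 0.30, adjusted p = 0.0926), and Rhbg (an ammonia transporter) at 26.1, 16.2 and 22.6 CPM against 45.5, 43.2 and 53.9 CPM (1.14 ± 0.32, adjusted p = 0.0748). DESeq2 gave 0.0170 and 0.00953 for these 2 genes. Hsd11b2, which protects the mineralocorticoid receptor from cortisol-like steroids, was at 54.9, 30.5 and 39.0 CPM against 78.0, 79.8 and 83.8 CPM (0.96 ± 0.24, adjusted p = 0.0505, and 0.00362 by DESeq2).

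The 23 podocyte markers had a median of 0.35. Nphs1 (nephrin) was at 15.8, 9.57 and 12.4 CPM against 20.9, 18.2 and 26.3 CPM, without overlap (0.80 ± 0.31, adjusted p = 0.189). The summed macrophage markers were at 104, 114 and 218 CPM against 144, 137 and 155 CPM, with overlap, and of 17 macrophage markers none was called by edgeR or DESeq2 and none had an unadjusted p under 0.05.

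Lists of injury and immune genes held few calls. Sox4 was the 1 gene called among 24 tubular injury genes, against 1.96% of all genes called higher. It rose by 0.84 ± 0.18 (adjusted p = 0.0296, 0.129 with the offset, 0.121 without healthy replicate 2 and from 0.0796 to 0.0912 without healthy replicate 1 or contralateral replicates 1 or 3). In WT UUO 23 of the 24 were higher than in healthy kidney, against 29.2% of all genes. Lcn2, the injury marker NGAL, was at 0.936, 0.840 and 0.837 CPM against 1.84, 1.76 and 1.54 CPM, without overlap (0.98 ± 0.27, adjusted p = 0.0741, and 0.0137 by DESeq2), and at 214 ± 59.3 CPM in WT UUO. Havcr1 (KIM-1) was at 2.08, 57.4 and 0.977 CPM in the healthy libraries, where the male replicate 2 stood far above the others, and at 1.16, 3.36 and 0.755 CPM in the contralateral ones (adjusted p = 0.118, 0.928 without healthy replicate 2). Complement C4b was at 1.99, 6.35 and 7.21 CPM against 34.9, 38.7 and 15.4 CPM, the last in the library of matching genotype. C4b rose by 2.51 ± 0.57 (adjusted p = 0.0350). It was called neither with the offset (adjusted p = 0.109) nor without healthy replicates 1 or 2 or contralateral replicates 1 or 2 (adjusted p from 0.0881 to 0.121). Of 16 T and NK cell markers none was called by edgeR or DESeq2, 3 had an unadjusted p under 0.05, 14 were negative and the median was -0.97, with the highest summed level, 10.6 CPM, in healthy replicate 3. Without that library 8 of the 16 were positive and the median was 0.05.

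Markers of tissues around the kidney differed between libraries. Summed white fat markers were at 15.9, 10.2 and 126 CPM in the healthy and 165, 34.5 and 217 CPM in the contralateral libraries, and summed brown fat markers at 10.8, 8.03 and 8.99 CPM against 28.7, 23.3 and 14.2 CPM. Only the brown fat sums did not overlap. Of 6 brown fat markers 2, Ucp1 and Cidea, were called higher, against 1.96% of all genes. All 6 were positive, against 48.8% of all genes, and the median log2 change was 2.70. Ucp1, the uncoupling protein that defines brown fat, had no count in healthy replicates 1 and 2 and was at 0.0775 CPM in healthy replicate 3. In the contralateral libraries Ucp1 was at 10.9, 8.17 and 0.656 CPM, the last in the library of matching genotype. It was called higher (adjusted p = 0.0135), lost the call without healthy replicate 1 (0.0525) or 2 (0.0798), and was at 0.101 ± 0.0674 CPM in WT UUO. Cidea, a lipid droplet protein, was at 0.0203, 0.0410 and 0.0155 CPM against 3.04, 1.89 and 0.853 CPM (adjusted p = 0.0473, 0.120 with the offset) and was called in none of the 6 fits that left out 1 library (0.0613 to 0.166). Of 9 white fat and 7 urothelial markers none was called by edgeR or DESeq2, with 2 and 0 at an unadjusted p under 0.05, and the summed urothelial level was at 0.631, 5.39 and 3.81 CPM against 2.34, 21.0 and 9.32 CPM. The order of the contralateral libraries in brown fat, replicates 1, 2 and 3, is also their order in the summed mitotic level, whereas in white fat replicate 2 was the lowest, and among the healthy libraries the brown fat and mitotic orders differ. The part of these tissues in the mitotic result was not tested.

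**Figure D5:**
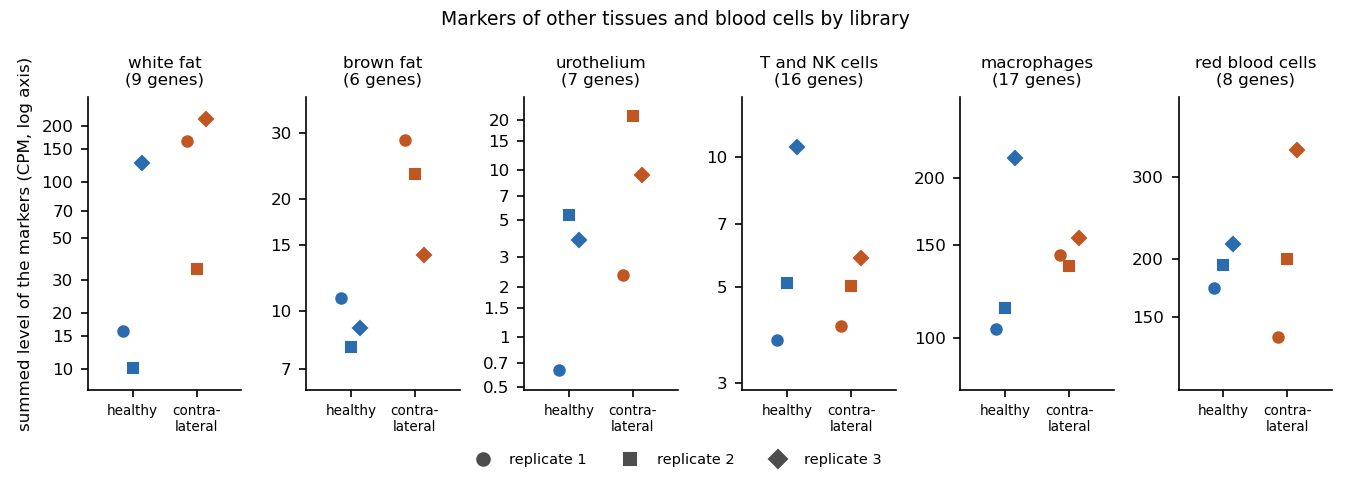
Summed CPM of marker genes of 6 other tissues or blood cells in each library (y axis, log scale; circles, squares and diamonds are replicates 1, 2 and 3). White fat ranges from 10.2 to 217 CPM over the 6 libraries, and the brown fat sums of the groups do not overlap.

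Part of the largest changes lay near Twist1, whose alleles differ between the groups. Of 138 genes tested within 20 Mb of Twist1 on chromosome 12, 13 were called (9.42%, against 2.26% of all genes), 8 higher and 5 lower. With the offset 7 of the 138 were called, against 0.437% of all genes. Zfp125 (chr12:20877084-20921262) was at 0.0610, 0.328 and 0.0620 CPM against 2.07, 2.51 and 1.79 CPM, without overlap (3.84 ± 0.48, adjusted p = 0.00290). The contralateral library with floxed Twist, at 1.79 CPM, was also far above the healthy ones, and WT UUO was at 3.22 ± 0.750 CPM. It is annotated as a pseudogene and overlaps 3110053B16Rik and Gm10478, which were also called, so that their reads may not be separate. Sntg2 (a syntrophin) fell by 1.88 ± 0.33 (adjusted p = 0.0113, 0.0616 without healthy replicate 2 and 0.0503 without contralateral replicate 1). Lamb1 (a laminin chain of basement membranes, chr12:31265234-31329644) was at 160, 125 and 171 CPM against 242, 219 and 245 CPM and rose by 0.63 ± 0.11 (adjusted p = 0.0104, 0.0580 with the offset). Twist1 itself was at 0.285, 0.102 and 0.186 CPM against 0.188, 0.372 and 0.131 CPM, with overlap (adjusted p = 0.860), and at 2.59 ± 1.72 CPM in WT UUO.

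Of the genes with predicted names, 2 stood out and were picked after their values were seen. Gm10704, a processed pseudogene on chromosome 3, was at 8.54, 8.56 and 6.70 CPM in the healthy and 0.171, 0.149 and 0.0984 CPM in the contralateral libraries (-5.82 ± 0.58, adjusted p = 0.00100), and at 0.166 ± 0.0604 CPM in WT UUO. Gm26917, a non-coding RNA with 69.1% GC, was at 311, 178 and 410 CPM against 732, 927 and 986 CPM (1.56 ± 0.25, adjusted p = 0.00782). Gpr123 had no count in any healthy library and at most 0.0984 CPM in a contralateral one, and no fold is given.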

How the data were processed

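Raw counts per gene symbol were taken from the authors' deposited table for 18 libraries. 6 further columns matched no sample and were not used. Per the labels, TRIzol was used on a portion of frozen kidney, and TruSeq stranded whole-transcriptome libraries were read on a NextSeq500 in pairs of 75 bases. The submitters' processing notes name bcl2fastq 1.8.4, HTSeq, DESeq2 and mm10. For the aligner, the annotation and the strand option, nothing is given in the sources used here, so reads of overlapping genes may not be separate.

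The main test was edgeR 4.0.16 (R 4.3.3): genes kept by filterByExpr (21050 of 31787 symbols), TMM scaling, a robust quasi-likelihood model of group means fitted to all 18 libraries (12 residual degrees of freedom), two-sided, called at a Benjamini-Hochberg adjusted p under 0.05. DESeq2 1.42.0, limma 3.58.1 (voom), other scalings and filters, a minimum fold, Cre and sex terms, fewer groups and each library left out were alternatives. The GC content and length offsets, the fit without the male libraries of the 2 compared groups and the one without 2 abundant RNAs were added after seeing the data. GC content came from the longest GENCODE transcript in mm10, and promoters from RefSeq (GRCm38.p6). CPM are TMM-scaled and not divided by transcript length, so levels of different genes are not compared.

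Lists and members were chosen with earlier results of these data known. Named were the 12 largest rises and falls and the 8 most abundant called genes in each direction without overlap, up to 6 members of each list by p, genes called in all 6 fits without 1 library, and 16 genes fixed by name. Some of these genes are not reported here. On simulated data for this comparison with 21050 genes and no GC trend, the test recovered 20.9% of genes changed 1.5-fold, 64.2% at 2-fold and 98.5% at 4-fold, and called 8 unchanged genes. With a GC trend simulated and no offset it recovered 19.4%, 70.1% and 92.4% and called 15 unchanged genes. With that trend and the offset it recovered 17.9%, 68.7% and 92.4% and called 7 unchanged genes. The simulated trend had the same slope in every contralateral library and none in the healthy ones, whereas the slopes of the real libraries differed. The changed genes were drawn from those with a healthy mean of at least 1 CPM, so lower genes are not covered. No pair of the 6 libraries was within counting noise of another.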

Additional observations from a re-analysis of the deposited data

How the results depend on the processing

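The 476 calls became 500 with DESeq2 size factors, 392 with upper-quartile scaling, 321 with no count filter, 628 with a minimum of 1 CPM and 530 without mitochondrially encoded genes. Larger shifts were 1333 with DESeq2, 237 with limma voom, 112 at a 2-fold minimum, 3 with only the 2 groups in the fit, 11 with WT UUO added, 75 with Cre presence, 718 with sex, 41 with both, and 3 with only the Cre-negative contralateral library. Leaving out 1 library gave 44 to 977. Added after seeing the data was the fit without the male libraries of the 2 groups, with the obstructed kidneys kept (10). Also added were the GC content offset (92), the GC content and length offset (84) and the GC content offset with only the 2 groups (3). The last additions were the GC content offset without healthy replicates 1, 2 and 3 (24, 10 and 241) or contralateral replicates 1, 2 and 3 (18, 38 and 52). The 24 mitotic calls became 11 with limma voom, 0 with only the 2 groups, 2 with WT UUO added, 6 with Cre presence and 3 with Cre and sex. They became 7 to 32 with 1 library left out, 1 without the male libraries of the 2 groups and 0 with the GC content offset and only the 2 groups. With the GC content offset they became 4, 3 and 24 without healthy replicates 1, 2 and 3 and 4, 9 and 17 without contralateral replicates 1, 2 and 3. In every fit at least 96.0% of the 476 were tested and kept their direction. Genes that a filter left untested count against that share, which was lowest with the minimum of 1 CPM. Of 2289 values for 74 called genes chosen by the naming rule, 1019 kept direction and call, 1268 lost the call and 2 reversed, both for Rptor (0.27): -0.068 with the GC content and length offset, and -0.00089 without healthy replicate 1 in the GC content offset fit. The cause was not tested. No paired analysis was possible because the replicate numbers follow sample order and no label ties kidneys to an animal. With 3 libraries per group, changes under 2-fold were often missed on simulated data.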
